A study of Mus musculus with 36 samples.

Results

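The genes described here encode colony-stimulating factors and their receptors in the mouse. They were chosen as the array probes whose gene symbol was Csf1, Csf3, Csf1r, Csf2ra, Csf2rb or Csf3r. Of these 6 genes, 5 had a probe, 1 each, among 12394 genes with a symbol on the array, and Csf2rb had none under that symbol. Csf1, Csf1r and Csf2ra were measured in 4 tissues, Csf3 in heart alone and Csf3r in brain alone, which gave 14 gene and tissue pairs. The study asked whether genipin, an iridoid aglycone derived from gardenia fruit, alters the acute response to lipopolysaccharide (LPS), the outer membrane component of Gram-negative bacteria that is sensed by Toll-like receptor 4.

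The mice were transgenic females of the FVB strain, 6 to 8 weeks old, used for luciferase imaging. Mock mice received no treatment. LPS mice received 4 mg/kg LPS into the peritoneal cavity. LPS+genipin mice received the same LPS injection and genipin 10 min afterwards. Brain, heart, kidney and liver were each represented by these 3 groups with 3 arrays per group, 36 arrays in all. Tissue of the LPS and LPS+genipin mice was taken 4 h after LPS, and no time is given for the mock tissue. The study used 1, 10 and 100 mg/kg genipin, and which of these doses the LPS+genipin arrays represent is not stated by the labels. The labels also do not tie arrays to individual mice, so each p-value reflects array-to-array spread, which may be technical.

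Csf1 encodes macrophage colony-stimulating factor, the growth and survival factor of macrophages and microglia, which acts through the receptor tyrosine kinase encoded by Csf1r. Csf3 encodes granulocyte colony-stimulating factor, which drives neutrophil production and release and acts through the receptor encoded by Csf3r, and its transcription in stromal and endothelial cells is induced by inflammatory signals. Csf2ra encodes the ligand-binding alpha chain of the receptor for granulocyte-macrophage colony-stimulating factor, which signals with a shared beta chain encoded by Csf2rb.

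The sequences just upstream of 3 of the 6 genes, Csf1, Csf2ra and Csf3r, were in the RefSeq promoter table (build GRCm38.p6). They are shown because the LPS responses of these genes differed. Csf1 rose in every tissue, Csf2ra rose in kidney and liver but fell in brain and heart, and Csf3r fell in brain, where alone it was measured. Each sequence is the 250 bases before the annotated start, written 5′ to 3′ on the gene's strand. Csf1 lies at chr3:107760470-107760719 on the minus strand, Csf2ra at chr19:61228419-61228668 on the minus strand and Csf3r at chr4:126024409-126024658 on the plus strand. Capitals mark letters searched on both strands, namely an NF-kB element reduced to GGG and CC with 5 bases between them, and the ETS core GAGGAA bound by the myeloid factor PU.1.
Csf1: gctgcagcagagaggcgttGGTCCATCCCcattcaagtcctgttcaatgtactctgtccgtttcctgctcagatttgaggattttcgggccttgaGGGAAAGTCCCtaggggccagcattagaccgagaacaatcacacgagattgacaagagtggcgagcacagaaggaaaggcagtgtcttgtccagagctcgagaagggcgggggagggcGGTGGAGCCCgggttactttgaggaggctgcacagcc
Csf2ra: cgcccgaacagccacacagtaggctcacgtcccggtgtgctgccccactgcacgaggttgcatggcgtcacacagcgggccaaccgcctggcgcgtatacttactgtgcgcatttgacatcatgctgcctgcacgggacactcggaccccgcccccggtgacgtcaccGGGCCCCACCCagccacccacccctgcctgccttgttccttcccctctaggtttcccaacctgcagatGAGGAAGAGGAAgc
Csf3r: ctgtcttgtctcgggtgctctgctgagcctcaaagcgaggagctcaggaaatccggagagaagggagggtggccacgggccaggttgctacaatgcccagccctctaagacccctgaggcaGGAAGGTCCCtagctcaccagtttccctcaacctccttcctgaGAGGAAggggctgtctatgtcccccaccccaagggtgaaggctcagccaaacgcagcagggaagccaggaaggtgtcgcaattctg
The NF-kB letters matched 4 times upstream of Csf1, where 2 matches on opposite strands overlap, 2 times upstream of Csf2ra, both overlapping, and 1 time upstream of Csf3r. Such letters occur in 45.8% of the 32851 upstream windows of that length in the table. GAGGAA matched 2 times upstream of Csf2ra, ending 3 bases before the start, and 1 time upstream of Csf3r, and it occurs in 23.3% of all windows. The AP-1 element TGANTCA (6.75% of windows), the C/EBP element TTNNGCAA (9.56%) and the CK-1 element GAGATTCC (0.755%) had no match in the 3 windows. A match is a description of letters and does not show binding.

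The deposited values are Cy5 array intensities. From their nearly equal medians they were taken as normalized within each tissue, so levels are compared within a tissue and never between tissues or between probes. Brain arrays measured 10148 genes, heart arrays 9536, kidney arrays 9485 and liver arrays 8479, and array medians differed by at most 2 intensity units within a tissue. The number of arrays limits the precision. Defining markers of each labelled tissue were present, with 7 of 9 brain markers measured in brain, 7 of 8 heart markers in heart, 8 of 9 kidney markers in kidney and 6 of 8 liver markers in liver. Transcripts of other tissues or cell types stood apart in all 3 arrays of several groups. The mock brains held skeletal muscle transcripts, with 4 markers summing to 112506 to 118985 intensity units against 3416 to 4086 in the other brains. The LPS hearts held adipocyte transcripts, with 2 markers summing to 71391 to 79640 against 1672 to 1812 in the other hearts. In the LPS hearts 4 liver markers summed to 16576 to 26797 against 2417 to 3999, but the list was mixed. Against mock, 1 of these 4 markers was higher and 2 were lower (median log2 difference -0.17). The albumin gene Alb lay at the floor in all LPS hearts. In kidney 3 adipocyte markers summed to 25487 to 26941 in mock, 31946 to 36921 in LPS and 50536 to 58651 in LPS+genipin arrays. The LPS+genipin kidneys also held more skeletal muscle transcripts (2 markers, 3691 to 3881 against 750 to 1049 in the other kidneys) and fibroblast and pericyte transcripts (8 markers, 57230 to 58118 against 35724 to 39280). In the kidney, 4 liver markers summed to 26814 to 35032 in mock arrays and 56585 to 72552 in the treated arrays. The part of these transcripts in the results was not tested. In brain, the log2 difference of LPS+genipin against LPS is taken without the mock brains. In heart, that of LPS+genipin against mock is taken without the LPS hearts. The SE and p, however, come from a fit to all 9 arrays of the tissue. For family genes that passed in these comparisons, values from a fit to only the 2 groups are given beside them. For markers and genes of the other lists they are not given.

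Each difference is given on the log2 scale, one group mean minus another ± SE from limma with 3 arrays per group, and p-values are adjusted by Benjamini-Hochberg over all genes of the tissue, with 0.05 as the threshold. With LPS, every measured gene of the family passed in every tissue, but 2 of these calls depended on single arrays. With single arrays left out, Csf2ra in heart kept its call in 3 of 9 fits and Csf1r in kidney in 5 of 9. In brain 1 of the 4 measured genes was higher and 3 were lower, where 16.4% of all genes were higher and 17.6% lower. In heart 2 of 4 were higher and 2 lower, beside 18.3% and 29.1% of all genes. In kidney 2 of 3 were higher and 1 lower, beside 25.3% and 39.2%. In liver 2 of 3 were higher and 1 lower, beside 29.3% and 37.2%.

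In LPS+genipin against LPS, 3 of the 4 genes measured in brain were higher and 1 was lower, beside 16.4% and 13.8% of all genes. In heart 1 of 4 was higher and 2 were lower, beside 22.1% and 19.9%. In kidney 1 of 3 was higher and 1 lower, beside 32.3% and 22.6%. In liver 1 of 3 was higher and none lower, beside 29.6% and 24.4%, and without LPS replicate 2 a second liver gene (Csf1) passed, as lower. The gene that passed as higher in all 4 tissues was Csf1r. LPS+genipin against LPS shares the LPS arrays with LPS against mock, so the 2 are given side by side without a test of their relation.

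In LPS+genipin against mock, 2 of 4 genes were higher and 1 lower in brain, beside 8.92% and 5.59% of all genes, but 1 gene (Csf1) passed without mock replicate 1, 2 or 3 or LPS+genipin replicate 2, and 2 without any other brain array. In heart 2 of 4 were higher and none lower, beside 7.61% and 12.3%. In kidney 3 of 3 were higher, beside 20.2% higher and 24.4% lower among all genes, although 1 of them, Csf1r, passed in only 3 of 11 other processing settings and with 1 of the 9 kidney arrays left out. In liver 2 of 3 were higher and 1 lower, beside 28.5% and 32.4%.

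**Figure D1:**
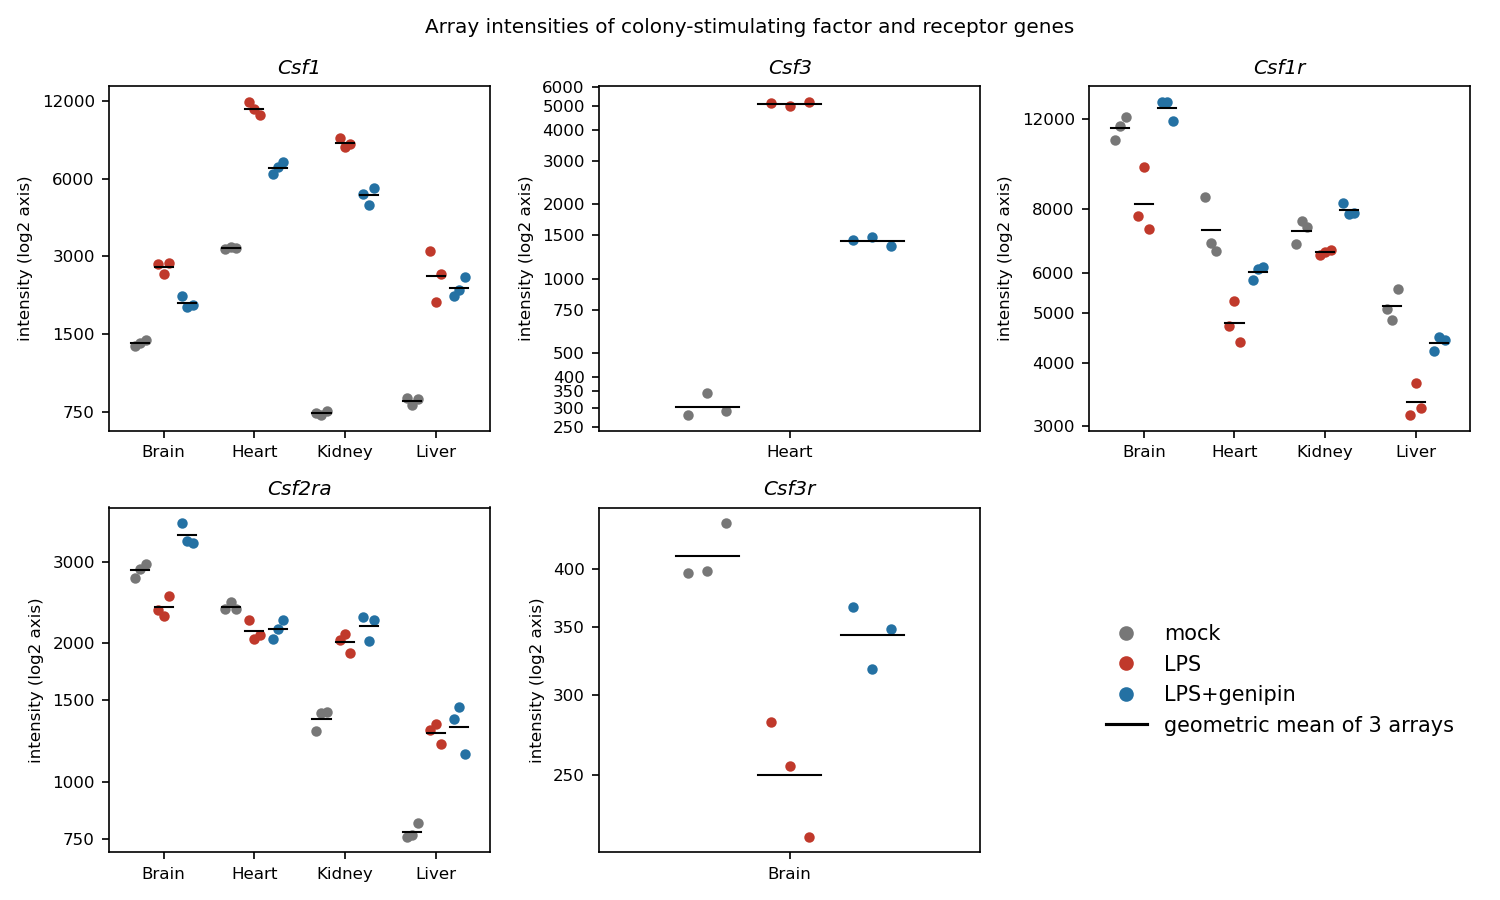
Array intensity (log2 axis) of Csf1, Csf3, Csf1r, Csf2ra and Csf3r in mock, LPS and LPS+genipin arrays of each tissue where measured; points are arrays and lines are geometric means of 3 arrays. The Csf1 points of LPS arrays lie above the mock points in all 4 tissues, and those of Csf1r lie below them.

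Csf1, the macrophage growth factor, rose with LPS in all 4 tissues, and by most in kidney. In kidney its intensity was 741, 726 and 752 in the mock arrays, 8603, 7957 and 8165 in the LPS arrays and 5238, 4745 and 5517 in the LPS+genipin arrays. The 3 groups did not overlap, with LPS highest and LPS+genipin between. Kidney Csf1 was 11.1-fold higher with LPS (log2 difference 3.48 ± 0.06, adjusted p = 2.06e-09). With genipin it fell by 0.68 ± 0.06 on the log2 scale against LPS (adjusted p = 5.26e-05) and stayed 2.80 ± 0.06 above mock (adjusted p = 2.02e-08).

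In heart, Csf1 intensity was 3189, 3265 and 3233 in mock, 11909, 11131 and 10587 in LPS and 6263, 6622 and 6925 in LPS+genipin arrays. These groups were again separate, in the same order. Heart Csf1 rose 3.47-fold with LPS (1.79 ± 0.06, adjusted p = 1.92e-07). With genipin it fell by 0.76 ± 0.06 against LPS (adjusted p = 4.63e-05). Against mock, Csf1 was higher with genipin by 1.03 ± 0.06 (adjusted p = 2.7e-05), and a fit without the LPS hearts gave 1.03 ± 0.05 (adjusted p = 0.000374).

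In brain, Csf1 intensity was 1345, 1386 and 1426 in mock, 2791, 2569 and 2817 in LPS and 2100, 1906 and 1945 in LPS+genipin arrays. No array of one group reached the range of another. Brain Csf1 rose 1.97-fold with LPS (0.98 ± 0.06, adjusted p = 1.5e-05) and was lower with genipin than with LPS alone by a log2 difference of -0.46 ± 0.06 (adjusted p = 0.00102). A fit without the mock brains gave -0.46 ± 0.07 (adjusted p = 0.0101). It remained above mock by 0.52 ± 0.06 (adjusted p = 0.000872).

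Liver differed in the spread of its LPS arrays. Csf1 intensity was 846, 792 and 840 in mock, 3142, 2001 and 2555 in LPS and 2105, 2211 and 2481 in LPS+genipin arrays. Both treated groups lay above mock, and the LPS+genipin arrays lay inside the range of the LPS arrays. Liver Csf1 rose 3.05-fold with LPS (1.61 ± 0.15, adjusted p = 3.43e-05) and was 1.45 ± 0.15 above mock with genipin (adjusted p = 7.82e-05). LPS+genipin against LPS gave -0.16 ± 0.15, with a 95% interval of -0.51 to 0.19 (adjusted p = 0.401). That value rested on single LPS arrays, since without LPS replicate 2 it was -0.33 and passed the threshold (adjusted p = 0.0413), and over all left-out arrays it ran from -0.33 to 0.00.

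Csf3, the neutrophil growth factor, had the largest log2 difference with LPS among the 14 gene and tissue pairs. In heart, where alone it was measured, its intensity was 280, 343 and 290 in mock, 5147, 5011 and 5214 in LPS and 1440, 1470 and 1357 in LPS+genipin arrays. The 3 groups were separate, and the mock arrays lay close to the floor of 262.7 that was set on dim intensities. Csf3 rose 16.9-fold with LPS (4.08 ± 0.08, adjusted p = 8.77e-09). It was 3.6-fold lower with genipin than with LPS alone (-1.85 ± 0.08, adjusted p = 1.73e-06). Against mock it was 4.69-fold higher with genipin (2.23 ± 0.08, adjusted p = 1.31e-06), and a fit without the LPS hearts gave 2.23 ± 0.09 (adjusted p = 0.000151).

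Neutrophil markers moved with Csf3 in the heart. All 4 measured markers (Ltf, S100a8, S100a9 and Retnlg, genes of neutrophil granules and cytosol) passed as higher with LPS and as lower with genipin. Their summed intensity was 3515 to 4100 in mock, 45052 to 49010 in LPS and 18983 to 20181 in LPS+genipin hearts. The lactoferrin gene Ltf changed most, by 4.42 ± 0.13 with LPS (adjusted p = 7.9e-08) and by -4.04 ± 0.13 with genipin (adjusted p = 3.81e-07). S100a9 changed by 4.05 ± 0.15 (adjusted p = 2.19e-07) and -1.03 ± 0.15 (adjusted p = 0.000836). Neutrophil markers were also higher with LPS where Csf3 was not measured, 2 of 2 in kidney, 3 of 3 in liver and 2 of 5 in brain. Among all genes 25.3%, 29.3% and 16.4% were higher there. With genipin against LPS, 3 of 3 were lower in liver (24.4% of all genes) and none in kidney (22.6%) or brain (13.8%). The part of the heart markers in the Csf3 difference was not tested.

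**Figure D2:**
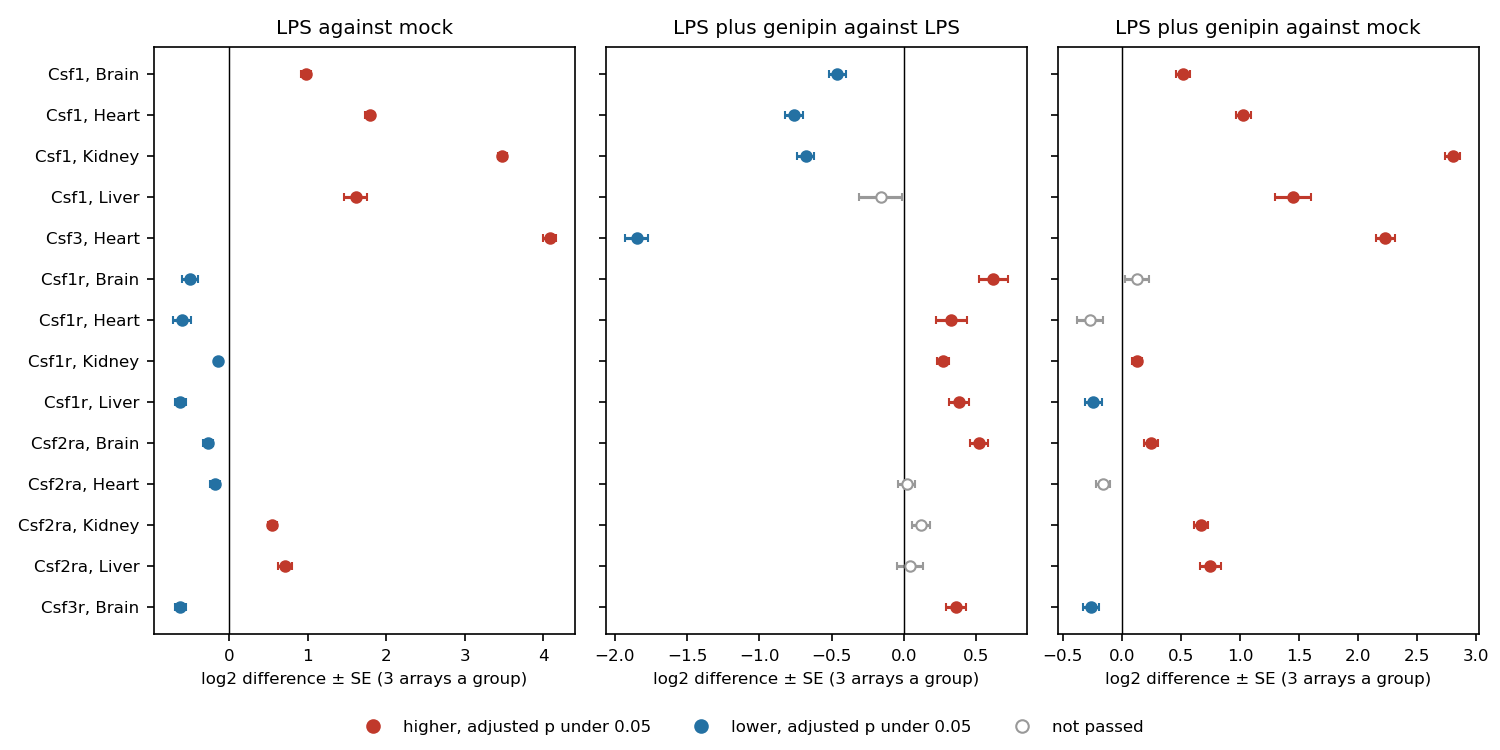
Log2 difference ± SE (3 arrays a group) for each gene and tissue in the 3 comparisons; filled points passed an adjusted p of 0.05 and open points did not. The Csf1 and Csf3 points lie above 0 with LPS, up to 4.08 for Csf3 in heart, whereas Csf1r lies below 0 with LPS and above 0 in LPS+genipin against LPS in all 4 tissues.

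Among the receptors, Csf1r, the tyrosine kinase of macrophages and microglia, fell with LPS in all 4 tissues and was higher with genipin than with LPS alone in all 4, although the LPS call in kidney and the genipin call in heart each depended on single arrays, given with those tissues. In brain its intensity was 10895, 11640 and 12102 in mock, 7731, 9665 and 7308 in LPS and 12964, 12943 and 11901 in LPS+genipin arrays. The LPS arrays lay below both other groups, which overlapped each other. Brain Csf1r changed by -0.50 ± 0.10 with LPS (adjusted p = 0.00828) and by 0.62 ± 0.10 with genipin against LPS (adjusted p = 0.00357), or 0.62 ± 0.12 in a fit without the mock brains (adjusted p = 0.0205). LPS+genipin against mock gave 0.13 ± 0.10, with a 95% interval of -0.11 to 0.37 (adjusted p = 0.478). In such tissue samples, fewer cells of a type and less RNA per cell cannot be told apart.

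Microglial markers moved with Csf1r in the brain. All 9 measured markers were lower with LPS, and 7 of 9 were higher with genipin than with LPS. Their summed intensity was 16663 to 17171 in mock, 7103 to 7460 in LPS and 12296 to 12860 in LPS+genipin brains. The fractalkine receptor gene Cx3cr1 changed by -2.27 ± 0.07 with LPS (adjusted p = 5.11e-07) and by 1.42 ± 0.07 with genipin (adjusted p = 1.51e-05). The purinergic receptor gene P2ry12 changed by -1.53 ± 0.05 (adjusted p = 5.11e-07) and 1.05 ± 0.05 (adjusted p = 9.64e-06), and Gpr34 lay at the floor in all LPS brains. Of 11 macrophage and monocyte markers, 4 were higher and 5 lower with LPS, and 4 were higher and none lower with genipin against LPS. Their sum was 24713 to 25474 in mock, 25687 to 28291 in LPS and 29852 to 31321 in LPS+genipin brains. The part of either list in the Csf1r difference was not tested.

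In heart, Csf1r intensity was 8447, 6857 and 6609 in mock, 4715, 5279 and 4383 in LPS and 5795, 6092 and 6155 in LPS+genipin arrays. The groups were separate, with LPS+genipin in the middle. Heart Csf1r changed by -0.60 ± 0.11 with LPS (adjusted p = 0.00205) and by 0.33 ± 0.11 with genipin against LPS (adjusted p = 0.0364). The genipin call was lost without LPS replicate 1 (0.32, adjusted p = 0.089) or 3 (0.27, adjusted p = 0.0983), and without LPS+genipin replicate 1 (0.36, adjusted p = 0.0631), 2 (0.32, adjusted p = 0.0949) or 3 (0.31, adjusted p = 0.0953). LPS+genipin against mock gave -0.27 ± 0.11 (95% interval -0.52 to -0.03, adjusted p = 0.11). Of 13 macrophage and monocyte markers in heart, 6 were higher and 4 lower with LPS, and 4 were higher and 1 lower with genipin against LPS. Their median log2 difference with genipin against LPS was -0.06. Their sum, in which bright genes weigh most, was 26961 to 27516 in mock, 27414 to 28376 in LPS and 30852 to 31991 in LPS+genipin hearts. The part of these markers in the Csf1r difference was not tested.

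In liver, Csf1r intensity was 5090, 4850 and 5565 in mock, 3155, 3655 and 3264 in LPS and 4216, 4485 and 4422 in LPS+genipin arrays. No groups overlapped. Liver Csf1r changed by -0.62 ± 0.07 with LPS (adjusted p = 0.000143) and by 0.38 ± 0.07 with genipin against LPS (adjusted p = 0.0032). Against mock it was lower with genipin by a log2 difference of -0.24 ± 0.07 (adjusted p = 0.0226), a call lost without mock replicate 3 (-0.18, adjusted p = 0.0714) or LPS+genipin replicate 1 (-0.21, adjusted p = 0.0717).

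Markers of macrophages were mixed in the liver. Of 13 macrophage and monocyte markers, 2 were higher and 8 lower with LPS, and 5 were higher and 1 lower with genipin against LPS. Their sum was 27534 to 28289 in mock, 20535 to 21205 in LPS and 23319 to 24696 in LPS+genipin livers. The mannose receptor gene Mrc1 changed by -1.50 ± 0.06 with LPS (adjusted p = 1.8e-07) and by 0.32 ± 0.06 with genipin (adjusted p = 0.00201). Of the 6 Kupffer cell markers, 2 were higher and 3 lower with LPS, and none was higher and 2 lower with genipin. The median log2 difference of the Kupffer list with LPS was 0.03. Its sum, in which bright genes weigh most, was 20765 to 22396 in mock, 51042 to 55081 in LPS and 43832 to 47031 in LPS+genipin livers. The scavenger receptor gene Marco was higher by 2.64 ± 0.05 with LPS (adjusted p = 7.52e-09), and Clec4f was lower (-0.63 ± 0.09, adjusted p = 0.000578). The part of these markers in the Csf1r difference was not tested.

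Kidney showed the smallest Csf1r differences with LPS. Its intensity was 6838, 7569 and 7360 in mock, 6510, 6588 and 6633 in LPS and 8197, 7803 and 7849 in LPS+genipin arrays. The LPS arrays lay just below mock, and the LPS+genipin arrays lay above both. Csf1r changed by -0.14 ± 0.04 with LPS (adjusted p = 0.0249), a call lost without mock replicate 2 (-0.11, adjusted p = 0.077) or 3 (-0.13, adjusted p = 0.0729) and without LPS replicate 1 (-0.13, adjusted p = 0.0648) or 2 (-0.14, adjusted p = 0.0579). It was higher with genipin than with LPS by 0.27 ± 0.04 (adjusted p = 0.00137).

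Against mock, kidney Csf1r with genipin was higher by 0.13 ± 0.04 (adjusted p = 0.0434). This call was lost without any 1 of 8 of the 9 kidney arrays, all but mock replicate 2, where the value was 0.09 without mock replicate 1, 0.14 without mock replicate 3, 0.13 without LPS replicate 1, 2 or 3, and 0.11, 0.15 and 0.14 without LPS+genipin replicates 1, 2 and 3. Adjusted p-values ran from 0.059 to 0.126. It also did not pass with no floor (adjusted p = 0.063), an offset of 50 (0.0602), an intensity trend with robust spread (0.0562), repeated quantile normalization (0.0536), scaling to one median (0.0549), dim genes left out (0.0502) or only the 2 groups in the fit (0.0814). Of 11 macrophage and monocyte markers in kidney, 9 were higher and none lower with LPS, and 7 were higher and 3 lower with genipin against LPS. Their sum was 18841 to 19450 in mock, 22842 to 24109 in LPS and 24721 to 25779 in LPS+genipin kidneys, so the marker sums of all LPS kidneys lay above mock where their Csf1r intensities lay below it.

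**Figure D3:**
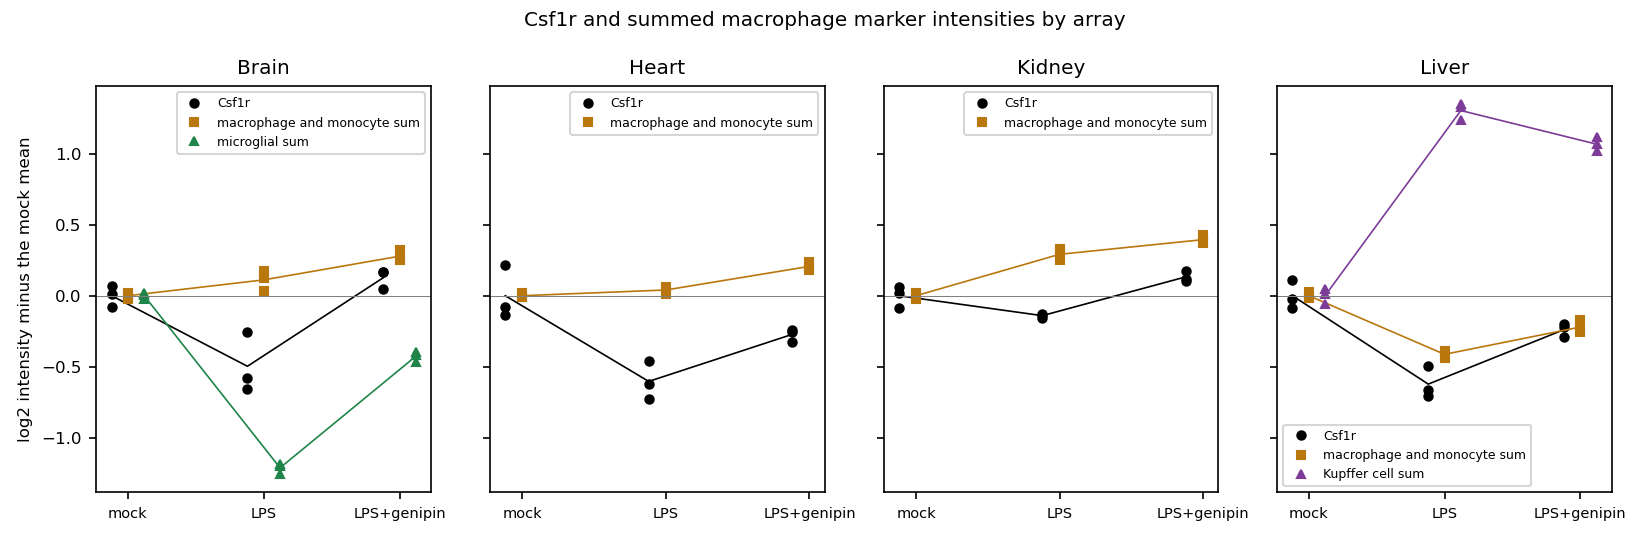
Log2 intensity minus the mock mean, by array, for Csf1r and for summed marker intensities of macrophages and monocytes, of microglia (brain) and of Kupffer cells (liver); points are arrays and lines join group means. In brain the microglial sum of LPS arrays lies further below mock than Csf1r does, and in kidney the macrophage and monocyte sum lies above mock where the Csf1r points of LPS arrays lie below it.

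Csf2ra, the alpha chain of the granulocyte-macrophage factor receptor, went in opposite directions with LPS in different tissues. In liver its intensity was 759, 764 and 813 in mock, 1293, 1335 and 1207 in LPS and 1366, 1448 and 1146 in LPS+genipin arrays. Both treated groups lay above mock and overlapped each other. Liver Csf2ra rose by 0.71 ± 0.09 with LPS (adjusted p = 0.000194) and was 0.75 ± 0.09 above mock with genipin (adjusted p = 0.000167). LPS+genipin against LPS gave 0.04 ± 0.09 (95% interval -0.17 to 0.25, adjusted p = 0.739).

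In kidney, Csf2ra intensity was 1287, 1406 and 1417 in mock, 2025, 2095 and 1901 in LPS and 2272, 2019 and 2242 in LPS+genipin arrays. The pattern was that of the liver, with overlapping treated groups above mock. Kidney Csf2ra rose by 0.55 ± 0.06 with LPS (adjusted p = 0.000143) and was 0.67 ± 0.06 above mock with genipin (adjusted p = 0.000105). LPS+genipin against LPS gave 0.12 ± 0.06 (95% interval -0.03 to 0.27, adjusted p = 0.158).

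In brain, Csf2ra intensity was 2767, 2888 and 2961 in mock, 2357, 2287 and 2529 in LPS and 3636, 3334 and 3298 in LPS+genipin arrays. The groups were separate, and the LPS+genipin arrays were the highest. Brain Csf2ra fell with LPS (-0.27 ± 0.06, adjusted p = 0.0116) and was higher with genipin than with LPS by 0.52 ± 0.06 (adjusted p = 0.000651), or 0.52 ± 0.07 in a fit without the mock brains (adjusted p = 0.00734). LPS+genipin against mock gave 0.25 ± 0.06 (adjusted p = 0.0276), a call lost without mock replicate 1 (0.23, adjusted p = 0.107), 2 (0.26, adjusted p = 0.08) or 3 (0.27, adjusted p = 0.0618) and without LPS+genipin replicate 1 (0.21, adjusted p = 0.0773) or 2 (0.27, adjusted p = 0.0639).

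In heart, Csf2ra intensity was 2373, 2449 and 2371 in mock, 2238, 2036 and 2083 in LPS and 2043, 2143 and 2238 in LPS+genipin arrays. Both treated groups lay below mock and overlapped each other. The LPS difference was -0.18 ± 0.06 (adjusted p = 0.0365). It did not pass without mock replicate 1 (-0.19), 2 (-0.16) or 3 (-0.19), LPS replicate 2 (-0.15) or 3 (-0.17), or LPS+genipin replicate 2 (-0.18), with adjusted p from 0.059 to 0.105, nor with an intensity trend and robust spread (0.0706) or only the 2 groups in the fit (0.0597). LPS+genipin against LPS gave 0.02 ± 0.06 (95% interval -0.12 to 0.15, adjusted p = 0.865), and LPS+genipin against mock gave -0.16 ± 0.06 (95% interval -0.30 to -0.03, adjusted p = 0.0906).

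Csf3r, the receptor for the neutrophil growth factor, was measured in brain at dim intensities. They were 396, 398 and 444 in mock, 282, 255 and 217 in LPS and 367, 318 and 349 in LPS+genipin arrays. The groups were separate, and 2 of the 3 LPS arrays were below the floor. Csf3r fell with LPS, by a log2 difference of -0.62 ± 0.07 that depends on the floor (adjusted p = 0.000534), and was higher with genipin than with LPS by 0.36 ± 0.07 (adjusted p = 0.0079), or 0.36 ± 0.07 in a fit without the mock brains (adjusted p = 0.0249). With the floor at 338.2, the 10th percentile of intensities in place of the 5th, the LPS difference was -0.29 (adjusted p = 0.00602), and the genipin difference was 0.05 and did not pass (adjusted p = 0.475). With no floor the LPS difference was -0.72.

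Csf3r in LPS+genipin against mock gave -0.26 ± 0.07 (adjusted p = 0.0463). It did not pass without mock replicate 1 (-0.29), 2 (-0.29) or 3 (-0.21), LPS replicate 1, 2 or 3 (-0.26 each), or LPS+genipin replicate 2 (-0.20) or 3 (-0.27), with adjusted p from 0.0501 to 0.153, nor with no floor (0.126), an offset of 50 (0.127) or only the 2 groups in the fit (0.0587). Neutrophil markers in brain did not move with it. Of 5 measured, S100a8 (1.42 ± 0.09, adjusted p = 2.87e-05) and S100a9 (1.27 ± 0.08, adjusted p = 1.84e-05) were higher with LPS and none was lower. Their sum was 2201 to 2304 in mock, 4030 to 4854 in LPS and 4647 to 4809 in LPS+genipin brains.

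Csf2rb could not be followed, because no probe carried its symbol. The array annotation names Csf2rb2, the neighbouring gene for the interleukin-3 receptor beta chain, which closely resembles Csf2rb, and it was measured in liver only. Its intensity was 181, 196 and 216 in mock, 862, 1082 and 861 in LPS and 670, 755 and 601 in LPS+genipin arrays. All 3 mock arrays lay below the floor, and the treated groups did not overlap. Liver Csf2rb2 was at least 3.53-fold higher with LPS than in mock (adjusted p = 2.72e-06) and changed by -0.47 ± 0.11 with genipin against LPS (adjusted p = 0.00798). Whether this probe also detects Csf2rb was not tested.

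The responses of Csf1, Csf1r and Csf2ra were next compared between tissues with limma, in 1 fit over all 36 arrays and with p-values adjusted over all genes in each pair of tissues. The fit took 1 spread per gene over all tissues. Among LPS arrays, however, the coefficient of variation of Csf1 was 22.2% in liver, 5.93% in heart, 4% in kidney and 4.99% in brain. The SE and p of Csf1 differences that involve liver may thus overstate their precision. For LPS against mock, 12 of the 18 gene and tissue-pair differences passed. The share of all genes passing was 45.3% for brain and heart, 46.2% for brain and kidney, 58.2% for brain and liver, 37.1% for heart and kidney, 48.9% for heart and liver and 48.5% for kidney and liver. Csf1 rose more in kidney than in brain (log2 difference of differences, brain minus kidney, -2.50 ± 0.13, adjusted p = 1.8e-14), heart (heart minus kidney -1.68 ± 0.13, adjusted p = 9.13e-11) and liver (kidney minus liver 1.87 ± 0.13, adjusted p = 6.01e-12). Heart and liver, neighbours in that order, differed by 0.18 ± 0.13 (adjusted p = 0.268). Brain had the smallest Csf1 response, below heart (-0.82 ± 0.13, adjusted p = 1.53e-05) and liver (-0.64 ± 0.13, adjusted p = 0.000209).

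The Csf2ra response to LPS split the tissues into a pair that fell and a pair that rose. The difference was -0.82 ± 0.10 for brain minus kidney (adjusted p = 1.31e-07), -0.98 ± 0.10 for brain minus liver (adjusted p = 2.34e-09), -0.73 ± 0.10 for heart minus kidney (adjusted p = 1.02e-06) and -0.89 ± 0.10 for heart minus liver (adjusted p = 1.73e-08). Within the pairs, brain minus heart was -0.09 ± 0.10 (adjusted p = 0.505) and kidney minus liver -0.16 ± 0.10 (adjusted p = 0.172). For Csf1r, the fall in kidney was smaller than in brain (brain minus kidney -0.36 ± 0.13, adjusted p = 0.0221), heart (heart minus kidney -0.46 ± 0.13, adjusted p = 0.00479) and liver (kidney minus liver 0.48 ± 0.13, adjusted p = 0.00231). Without the arrays numbered 1 these Csf1r values were -0.32 (adjusted p = 0.131), -0.31 (adjusted p = 0.173) and 0.41 (adjusted p = 0.0535), and without those numbered 3 brain minus kidney was -0.25 (adjusted p = 0.24).

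For LPS+genipin against LPS, 6 of 18 differences between tissues passed. Among all genes 43.4% passed for brain and heart, 40.5% for brain and kidney, 48.3% for brain and liver, 41.7% for heart and kidney, 48.8% for heart and liver and 36% for kidney and liver. Csf2ra differed between brain, where it was higher with genipin, and the other tissues, by 0.50 ± 0.10 for heart (adjusted p = 0.000165), 0.40 ± 0.10 for kidney (adjusted p = 0.00182) and 0.48 ± 0.10 for liver (adjusted p = 0.000234). The Csf2ra call was lost without the arrays numbered 1 for heart (0.37, adjusted p = 0.0504) and kidney (0.37, adjusted p = 0.0531), and without those numbered 2 for kidney (0.30, adjusted p = 0.0882).

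The genipin difference of Csf1 was more negative in heart than in liver (-0.60 ± 0.13, adjusted p = 0.000559) and in kidney than in liver (-0.52 ± 0.13, adjusted p = 0.00332). Both come from the fit with 1 spread for all tissues, so their precision may be overstated. The kidney and liver call was lost without the arrays numbered 2 (-0.33, adjusted p = 0.0995) or 3 (-0.51, adjusted p = 0.0685), and brain minus liver passed without those numbered 1 (-0.53, adjusted p = 0.00836). Csf1r had a larger genipin difference in brain than in kidney (0.35 ± 0.13, adjusted p = 0.0278), lost without the arrays numbered 1 (0.32, adjusted p = 0.154) or 3 (0.30, adjusted p = 0.164).

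As a description of size with no test, the genipin difference of Csf1 was -9.86% of its LPS difference in liver, -19.4% in kidney, -42.5% in heart and -47% in brain. For Csf3 in heart it was -45.3%. Both terms share the LPS arrays. Leaving out each array in turn gave -51.3% to -44.1% for Csf1 in brain, -44.5% to -40.4% in heart, -20.8% to -17.7% in kidney and -18.3% to -0.0339% in liver, and -46% to -44.4% for Csf3.

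Signals that induce these factors, listed as 16 genes, were mostly higher with LPS. The list holds inflammatory cytokines that LPS itself induces (among them Il1b, Il6 and Tnf), receptors for interleukin-1, TNF and interleukin-17, the LPS receptor gene Tlr4, the adaptor gene Myd88, NF-kB subunits and the cofactor gene Nfkbiz. In brain 7 of 8 measured genes were higher and none lower, beside 16.4% and 17.6% of all genes. The median log2 difference there was 0.96 against 0 over all genes. In heart 9 of 12 were higher and 1 lower, beside 18.3% and 29.1% (median 1.33 against -0.06). In kidney 12 of 12 were higher, beside 25.3% of all genes (1.83 against -0.09). In liver 12 of 13 were higher, beside 29.3% of all genes (1.82 against -0.03). The largest differences were those of Nfkbiz in kidney (3.69 ± 0.14, adjusted p = 2.42e-07) and heart (3.50 ± 0.16, adjusted p = 8.93e-07), of Il1b in liver (3.36 ± 0.07, adjusted p = 9.37e-09) and of Il17ra, the interleukin-17 receptor gene, in liver (3.29 ± 0.09, adjusted p = 2.65e-08). In brain they were Nfkb2 (1.78 ± 0.07, adjusted p = 1.23e-06) and the TNF receptor gene Tnfrsf1a (1.53 ± 0.07, adjusted p = 2.35e-06). Tnf itself did not pass with LPS in heart (0.32 ± 0.19, adjusted p = 0.189).

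With genipin against LPS, the same list had 6 of 8 genes lower in brain, beside 13.8% of all genes (median -0.56 against 0.01 over all genes). In heart 9 of 12 were lower and 1 higher, beside 19.9% and 22.1% (-0.76 against 0.03). In kidney 10 of 12 were lower and 1 higher, beside 22.6% and 32.3% (-0.62 against 0.04). In liver 6 of 13 were lower and 1 higher, beside 24.4% and 29.6% (-0.39 against 0.03). The higher genes were Tnf in heart (0.56 ± 0.19, adjusted p = 0.0425), Il1b in kidney (0.39 ± 0.07, adjusted p = 0.00242) and Rela in liver (0.44 ± 0.16, adjusted p = 0.0421). Myd88, which serves Toll-like and interleukin-1 receptors, fell by 1.29 ± 0.07 on the log2 scale in heart (adjusted p = 4.03e-06) after a rise of 2.14 ± 0.07 with LPS (adjusted p = 1.12e-07). Relb, an NF-kB subunit gene, fell by 1.34 ± 0.08 in kidney (adjusted p = 5.76e-06) after a rise of 3.25 ± 0.08 (adjusted p = 1.44e-08). Il1r1 fell by 1.36 ± 0.07 in liver (adjusted p = 4.09e-06) after a rise of 2.66 ± 0.07 (adjusted p = 3.21e-08).

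Downstream of the receptors, the JAK-STAT list held 2 genes higher and 1 lower of 10 with LPS in brain, 5 and 1 of 11 in heart, 7 and 0 of 12 in kidney and 7 and 2 of 12 in liver. Among all genes tested, 16.4% were higher and 17.6% lower with LPS in brain, so the brain count is near that background, with 18.3% and 29.1% in heart, 25.3% and 39.2% in kidney and 29.3% and 37.2% in liver. The list's median log2 difference was 0.02, 0.36, 0.31 and 0.51 in these tissues, in that order, against 0, -0.06, -0.09 and -0.03 over all genes. The gene lower in brain was the kinase gene Jak2, at the floor in all LPS brains. Its estimate was at least 9.19-fold lower than in mock (log2 SE 0.64, adjusted p = 0.00711). With genipin the estimate was at least 5.28-fold higher than with LPS (log2 SE 0.64, adjusted p = 0.0258). These bounds account for the floor alone and not for the wide spread between Jak2 arrays. For LPS against mock in brain, the other measured genes of the list had an SE of 0.07 to 0.15. Jak2 did not pass with LPS in kidney (-0.26 ± 1.24, adjusted p = 0.879) or liver (1.65 ± 0.68, adjusted p = 0.061). Socs3, the feedback inhibitor of the granulocyte factor receptor and of other cytokine receptors, rose by 2.94 ± 0.07 in brain (adjusted p = 8.93e-08), 3.93 ± 0.08 in heart (adjusted p = 8.77e-09), 3.89 ± 0.04 in kidney (adjusted p = 1.89e-10) and 3.56 ± 0.06 in liver (adjusted p = 3.68e-09). With genipin against LPS, Socs3 changed by -0.97 ± 0.07 in brain (adjusted p = 7.21e-05), -1.0 ± 0.08 in heart (adjusted p = 3.75e-05), -0.90 ± 0.04 in kidney (adjusted p = 1.72e-06) and -0.40 ± 0.06 in liver (adjusted p = 0.00101). On the whole list, genipin against LPS gave 1 higher and 3 lower in brain (all genes 16.4% and 13.8%), 2 and 4 in heart (22.1% and 19.9%), 2 and 8 in kidney (32.3% and 22.6%) and 2 and 5 in liver (29.6% and 24.4%).

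Among kinases and adaptors next to the receptors, 1 gene was higher and 3 lower of 11 with LPS in brain (all genes 16.4% and 17.6%), 5 and 1 of 13 in heart (18.3% and 29.1%), 8 and 2 of 11 in kidney (25.3% and 39.2%) and 7 and 2 of 11 in liver (29.3% and 37.2%). The median log2 differences were 0, 0.19, 0.30 and 0.25 in that order of tissues, against 0, -0.06, -0.09 and -0.03 over all genes. With genipin against LPS the counts were 5 higher and 2 lower in brain (all genes 16.4% and 13.8%), 2 and 4 in heart (22.1% and 19.9%), 2 and 4 in kidney (32.3% and 22.6%) and 1 and 1 in liver (29.6% and 24.4%). Dok1, a docking protein that dampens tyrosine kinase signals, rose by 1.81 ± 0.13 in heart (adjusted p = 1.18e-05) and fell by 1.64 ± 0.13 with genipin (adjusted p = 3.19e-05). Ubash3b, a tyrosine phosphatase gene, rose by 1.20 ± 0.07 in kidney (adjusted p = 3.42e-06) and fell by 1.85 ± 0.07 (adjusted p = 1.22e-06).

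Of the myeloid transcription factors, 2 were higher and 2 lower of 7 with LPS in brain (all genes 16.4% and 17.6%), 6 and 1 of 7 in heart (18.3% and 29.1%), 6 and 3 of 9 in kidney (25.3% and 39.2%) and 5 and 1 of 7 in liver (29.3% and 37.2%). The median log2 differences were -0.02, 1.25, 1.22 and 1.14 in that order of tissues. Cebpb, which directs emergency granulocyte production, rose by 1.46 ± 0.05 in brain (adjusted p = 1.12e-06), 1.38 ± 0.05 in heart (adjusted p = 2.19e-07), 2.20 ± 0.06 in kidney (adjusted p = 3.15e-08) and 1.17 ± 0.07 in liver (adjusted p = 2.05e-06). Irf8, a factor of the monocyte lineage, rose by 2.48 ± 0.07 in kidney (adjusted p = 4.63e-08) and fell by 1.34 ± 0.07 with genipin against LPS (adjusted p = 4.28e-06). For the whole list, genipin against LPS gave 1 higher and 1 lower in brain (all genes 16.4% and 13.8%), 0 and 6 in heart (22.1% and 19.9%), 2 and 4 in kidney (32.3% and 22.6%) and 3 and 3 in liver (29.6% and 24.4%).

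Related ligands and receptors made up the last list. With LPS none of 6 measured genes passed in brain (all genes 16.4% higher and 17.6% lower), 3 were higher and 1 lower of 4 in heart (18.3% and 29.1%), 3 and 0 of 4 in kidney (25.3% and 39.2%) and 1 and 0 of 4 in liver (29.3% and 37.2%). Il34, the second ligand of Csf1r, was measured in brain and kidney. In kidney it rose by 3.07 ± 0.05 with LPS (adjusted p = 1.63e-09) and fell by 1.89 ± 0.05 with genipin (adjusted p = 2.14e-07), while in brain LPS gave -0.09 ± 0.11 (adjusted p = 0.555). Kidney thus had both Csf1r ligand transcripts higher with LPS. With genipin against LPS, the list had 0 higher and 1 lower in brain (all genes 16.4% and 13.8%), 0 and 1 in heart (22.1% and 19.9%), 0 and 3 in kidney (32.3% and 22.6%) and 1 and 2 in liver (29.6% and 24.4%).

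**Figure D4:**
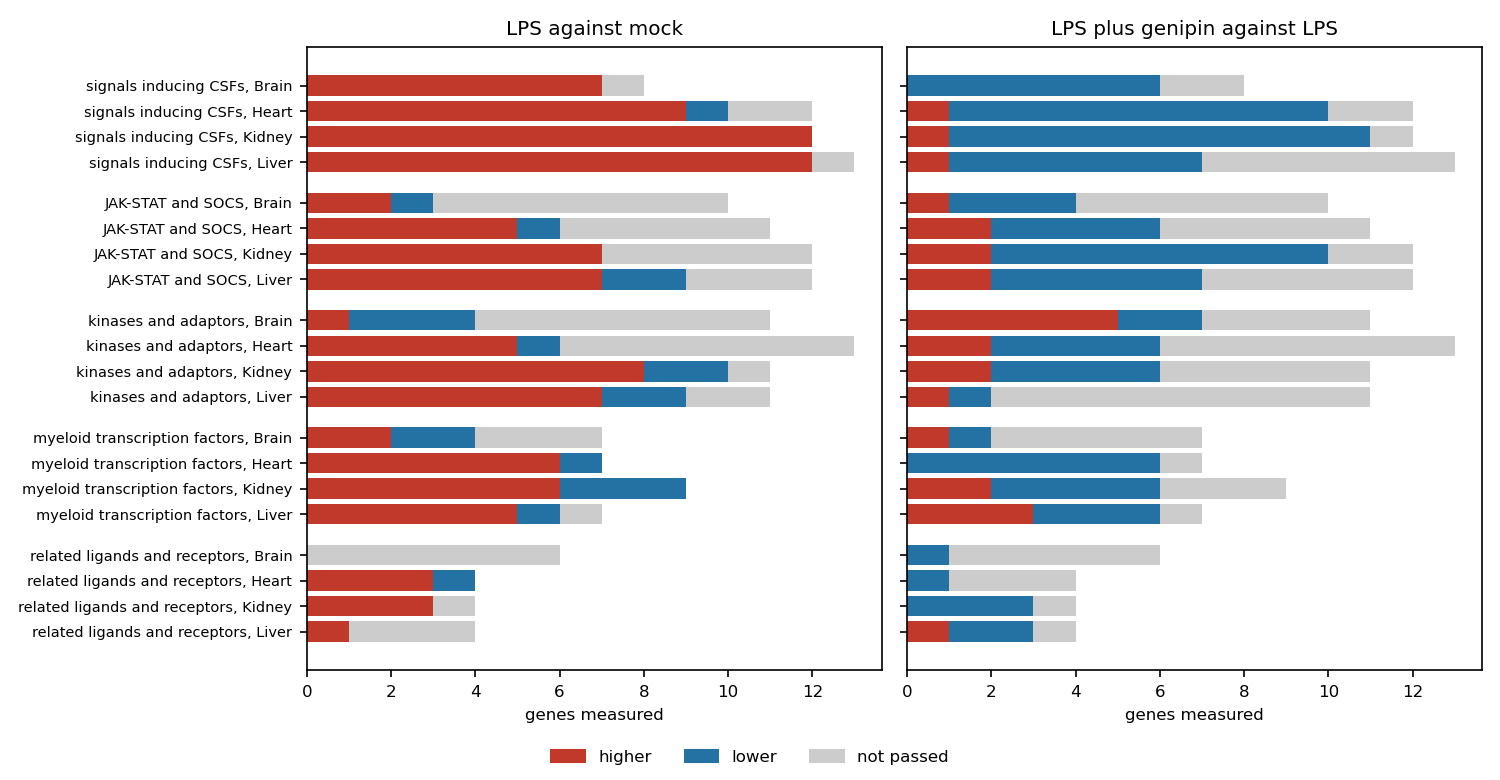
Number of measured genes higher, lower or not passing an adjusted p of 0.05 in each gene list and tissue, for LPS against mock and LPS+genipin against LPS. The list of signals that induce colony-stimulating factors has 12 of 12 genes higher with LPS in kidney and 10 of 12 lower with genipin against LPS. Of all genes in kidney, 25.3% were higher with LPS and 22.6% lower with genipin against LPS.

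The genes whose pattern was most like each member were found by Pearson correlation of log2 values after subtracting tissue means, as a description with no p. Arrays of a group share treatment and tissue, so these values mostly follow the group means. Over 36 arrays and 6704 genes, Csf1 was most like Hcls1 (r = 0.961), an adaptor gene of blood cells, Relb (0.957) and Cebpb (0.954). Over the same arrays Csf1r was most like Zfp362 (0.936), Chchd7 (0.884) and Sh3d19 (0.883), and Csf2ra most like Plk3 (0.875), Gnai2 (0.871) and Pcgf5 (0.846). Over the 9 heart arrays and 9517 genes, Csf3 was most like Lbp (0.999), the gene of the LPS-binding protein, Tifa (0.998) and Ackr1 (0.998). Over the 9 brain arrays and 10070 genes, Csf3r was most like Tmem119 (0.983), a microglial marker, Hspa12b (0.98) and Rasgrp3 (0.979). The Csf3r values are limited by the floor, at which 2 of its 3 LPS brain arrays were set, and the cells of this dim signal were not tested.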

How the data were processed

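Cy5-labelled RNA (5 µg per sample) from 4 tissues was hybridised to 36 arrays, 3 per group. The deposited values are linear intensities. The authors had normalized them tissue by tissue, as read from the nearly equal medians of the 9 arrays of a tissue, since no header or label records the step. The submitters' processing notes name limma, with no version. How background was corrected, and on which slide and date each array was scanned, is not stated in the labels or headers.

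Among the 18183 probes, 14817 carried 1 symbol, 0 several and 3366 none. Symbols were current in the GRCm38.p6 gene table for 12468 probes, updated through synonyms for 2318 and kept as given for 31. For the 2079 genes with more than 1 probe, the brightest probe on average across the 36 arrays stood for the gene. A probe was either measured on all 9 arrays of a tissue or on none. Values under the 5th percentile (262.7) were set to it before taking log2. A group wholly at the floor, or at 60000 or more, where the scanner saturates, gave a bound.

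A model of group means was fitted to the 9 arrays of each tissue, over all genes, in limma 3.58.1 (R 4.3.3), with two-sided p-values adjusted by Benjamini-Hochberg. A fit over 36 arrays gave differences between tissues, tested for each pair over the genes measured in both. The fit was tested on simulated data. Intervals are at the 95% level. Tables were made with pandas 2.3.3 and numpy 2.4.6 under Python 3.11.15, and figures with matplotlib 3.10.9.

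The genes, gene lists and marker lists were chosen with earlier results of these data known. Named list genes had the largest differences, at least 2-fold, among those passing in LPS against mock, at most 3 per list and tissue. Named markers were those of a list with the largest changes where the list moved with a member. The text names fewer genes than these rules allow. Clec4f, Il34 in brain, Tnf in heart, Il1b in kidney, Rela in liver, and Jak2 in kidney and liver were chosen after their values were seen. Alternatives covered the floor, an offset, probe choice, normalization, the spread estimate, array weights, a filter on dim genes, the groups in the fit, a replicate block and leaving out arrays. The range of the genipin difference as a percent of the LPS difference was added after seeing the data.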

Additional observations from a re-analysis of the deposited data

Results flagged for a closer look

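The 3 family genes measured in all 4 tissues responded differently in some pairs of tissues by a direct test of the difference (limma over 36 arrays, adjusted over all genes of the tissue pair). Such differences were common among all genes. By tissue pair, 37.1% to 58.2% of all genes passed for LPS against mock and 36% to 48.8% for LPS+genipin against LPS. Values are the log2 difference in the first tissue minus that in the second.

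For LPS against mock, Csf1 gave -0.82 for brain minus heart, -2.50 for brain minus kidney, -0.64 for brain minus liver, -1.68 for heart minus kidney and 1.87 for kidney minus liver. Csf1r gave -0.36 for brain minus kidney, -0.46 for heart minus kidney and 0.48 for kidney minus liver. Each of these Csf1r calls was lost without the arrays numbered 1. Csf2ra gave -0.82 for brain minus kidney, -0.98 for brain minus liver, -0.73 for heart minus kidney and -0.89 for heart minus liver.

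For LPS+genipin against LPS, Csf2ra gave 0.50 for brain minus heart, 0.40 for brain minus kidney and 0.48 for brain minus liver. The Csf2ra calls for brain minus heart and brain minus kidney were lost without the arrays numbered 1. Csf1r gave 0.35 for brain minus kidney, a call lost without the arrays numbered 1 or 3. Csf1 gave -0.60 for heart minus liver and -0.52 for kidney minus liver, and the kidney and liver call was lost without the arrays numbered 2 or 3. The tissues were normalized separately, as read from the array medians, and the part of that normalization in these differences was not tested.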

How the results depend on the processing

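Outside leave-one-out settings, 440 of 459 recomputed gene differences kept their direction and side of the threshold and 19 no longer passed. With single arrays left out, 335 of 378 were kept, 38 no longer passed, 1 newly passed and 4 turned sign. Differences between tissues were kept in 248 of 252 other settings, where 4 newly passed, and in 91 of 108 with a replicate number left out, where 11 no longer passed, 1 newly passed and 5 turned sign. Counts of family genes passing stayed within 1.5 times in 145 of 146 other settings and 109 of 114 with arrays left out.

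In brain, LPS+genipin against mock called 3 genes, 1 with a replicate block, and 1 to 2 with single arrays left out. In liver, LPS+genipin against LPS called 1 gene, and 1 to 2 with single arrays left out (2 without LPS replicate 2). With arrays left out, differences near 0 turned sign. Csf2ra in LPS+genipin against LPS ran from -0.02 to 0.06 in heart and -0.03 to 0.14 in liver. Between tissues, Csf1r with LPS ran from -0.01 to 0.23 for brain minus heart and -0.06 to 0.10 for heart minus liver, and Csf1r with genipin from -0.04 to 0.11 for heart minus kidney. Csf2ra with genipin ran from -0.13 to 0.07 for heart minus liver and -0.04 to 0.20 for kidney minus liver.

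Within each tissue, correlations of deviations between arrays of the same replicate number ran from -0.53 to 0.26. With only 3 arrays per group, these values cannot show whether the numbers pair the arrays. Whether arrays of the same number in different tissues came from the same mouse is not stated by the labels and was not tested. As a share of the LPS difference, the genipin difference of Csf3r was -18.9% with the higher floor, and that of Csf3 was -47.3% with that floor and -46.8% with an offset of 50 in place of a floor. Dim intensities limit Csf3r, with 2 of 3 LPS arrays at the floor, and Csf2rb2, with all 3 mock liver arrays there. A replicate block also ended the calls of Csf2ra for LPS against mock in heart (adjusted p = 0.0866), Csf1r for LPS+genipin against LPS in heart (0.0626) and Csf1r in kidney for LPS against mock (0.0517) and LPS+genipin against mock (0.0815), and of Csf2ra (0.0532) and Csf3r (0.0546) for LPS+genipin against mock in brain. The causes of these changes were not tested.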
